A study of Mus musculus with 8 samples.

Results

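Uptake transporters for glutamate, GABA and glycine were followed across 8 single-colour arrays of mouse neurospheres. The set holds 7 genes, Slc1a1, Slc1a2, Slc1a3, Slc1a4, Slc6a9, Slc6a11 and Slc6a13, found by name among the non-control probes, of 27234 genes compared. Each gene was given 1 value per array, that of its probe with the highest mean intensity. The cells were neural stem and progenitor cells grown as floating neurospheres. They were derived from mouse EB3 cells, an embryonic stem cell line, by way of embryoid bodies made with Noggin, a BMP inhibitor. In all groups the dissociated embryoid bodies were plated with lentivirus at a multiplicity of infection near 25 and grown with 20 ng/ml FGF2. Tertiary neurospheres (P2) were taken 6 days after secondary spheres were passaged, and primary neurospheres (P0) 6 days after the embryoid bodies. At each passage there were 4 conditions: an shRNA against both Nr2f1 and Nr2f2 (Nr2f1/2 shRNA, called the knockdown here), its control shRNA against firefly luciferase, miR-17, and its control miRNA against lacZ. Each of the 8 groups is 1 array, so a difference between 2 arrays has no replicate check. The promoters that drive the vectors and the number of cultures behind an array are not given in the sources used here, so the spread between arrays may be technical in part.

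Released glutamate, GABA and glycine are cleared from the extracellular space by transporters that couple the uptake of the amino acid to the sodium gradient kept up by the sodium pump. The SLC1 family carries glutamate and, through a pair of related members, neutral amino acids, while the SLC6 family carries GABA, glycine and other small transmitters with sodium and chloride. In the mature brain most glutamate uptake is by astrocytes, through GLAST (Slc1a3) and GLT-1 (Slc1a2), and GLAST is already made by radial glia, the neural stem cells of the embryo.

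Levels below are log2 intensities relative to each array's 75th percentile of non-control spots, and a difference of 1 on this scale is 2-fold. All 7 probes were well above background on all 8 arrays. Between 57.9% and 67.9% of the non-control spots of an array were well above background, and none was saturated. The number of arrays limits the precision. Of 10 radial glia markers, 10 were well above background on all 4 P2 arrays and 9 on all 4 P0 arrays. The targets of the knockdown were lower with the Nr2f1/2 shRNA on both passages, Nr2f1 by a mean log2 difference of -0.98 (SE 0.61) and Nr2f2 by -0.70 (SE 0.28), neither passing (adjusted p = 0.9997 in limma). All arrays lay on 1 slide with 1 scan. The shRNA arrays filled 1 slide column and the miRNA arrays the other, so vector system and slide column cannot be told apart, and slide row went with passage and treatment.

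The sequences that follow are the manipulated miRNA, the upstream regions of the 3 transporter genes that rose with passage, and the probe on which the value of Slc1a2 rests. The mature miR-17-5p of mouse chromosome 14 (GRCm38.p6, + strand, chr14:115043684-115043706, RefSeq) is shown with its seed, bases 2 to 8, in capitals.
mmu-miR-17-5p: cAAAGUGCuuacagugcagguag
Nr2f1 and Nr2f2 are nuclear receptors that bind repeats of the half-site AGGTCA. The 250 bases before the start sites of Slc6a11, Slc1a1 and Slc1a3 (RefSeq, GRCm38.p6) are printed 5′ to 3′ on the strand of the gene, with any AGGTCA in capitals: chr6:114130991-114131240 on the + strand, chr19:28834885-28835134 on the + strand and chr15:8710808-8711057 on the - strand, in that order.
Slc6a11: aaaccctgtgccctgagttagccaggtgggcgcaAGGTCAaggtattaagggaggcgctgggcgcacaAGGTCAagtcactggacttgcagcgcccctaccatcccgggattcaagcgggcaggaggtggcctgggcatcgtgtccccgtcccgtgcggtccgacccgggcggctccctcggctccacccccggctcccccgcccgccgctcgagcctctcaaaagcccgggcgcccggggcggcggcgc
Slc1a1: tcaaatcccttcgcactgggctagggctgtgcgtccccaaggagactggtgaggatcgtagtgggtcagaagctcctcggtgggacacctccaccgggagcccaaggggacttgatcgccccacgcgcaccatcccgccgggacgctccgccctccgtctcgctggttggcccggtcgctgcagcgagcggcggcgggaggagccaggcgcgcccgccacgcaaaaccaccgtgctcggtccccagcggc
Slc1a3: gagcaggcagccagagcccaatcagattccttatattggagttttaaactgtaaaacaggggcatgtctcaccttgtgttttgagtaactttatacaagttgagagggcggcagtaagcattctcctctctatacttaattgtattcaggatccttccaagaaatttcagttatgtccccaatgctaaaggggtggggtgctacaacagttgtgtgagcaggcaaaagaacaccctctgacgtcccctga
The Slc6a11 window held the half-site 2 times, beginning at bases -216 and -182 from the start site, and the Slc1a1 and Slc1a3 windows held none on either strand. Windows of 300 bases (250 before to 50 after a start site) were found for all 7 genes, 11 windows in all, and 3 of the 11 windows held the half-site, 1 each of 3 genes, the others being Slc1a2 (at base 44, + strand) and Slc6a13 (at base -224, - strand). Among all 32851 windows of that length 16.3% held AGGTCA on either strand. A direct repeat of the half-site with 1 base between was in 0.0396% of all windows, and the nuclear factor I palindrome (TTGGC and GCCAA with 5 bases between) in 0.0365%. Neither was in a window of these 7 genes. These matches describe letters in the windows and are not binding sites. The probe that gives Slc1a2 its value lies at chr2:102617752-102617811 (mm9, + strand), base 1615 of the transcript in the array's files, and 1 of its reading frames holds no stop.
Slc1a2 probe: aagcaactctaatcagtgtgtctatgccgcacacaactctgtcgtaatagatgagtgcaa

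The comparison of passages asked which transporters differ between P2 and P0 neurospheres over all 4 conditions. Slc6a11, Slc1a1 and Slc1a3 rose with passage, 9.99-, 9.56- and 3.75-fold, and none of the 7 fell. The other 4, Slc1a2, Slc1a4, Slc6a9 and Slc6a13, did not pass, with fitted differences between -0.10 and 1.03. Over all genes tested 2.67% were called higher and 2.41% lower, 5.08% in either direction (limma with condition as a block, Benjamini-Hochberg adjusted p under 0.05), against 3 of 7 and 0 of 7 here. The median of the 7 passage differences was 1.03, against -0.21 for all genes tested. In bulk RNA fewer cells of a type and less RNA per cell cannot be told apart.

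Slc6a11, the GABA transporter GAT-3 of astrocytes, stood at 0.28 in P2 neurospheres with the knockdown, 2.06 with control shRNA, 1.06 with miR-17 and 2.03 with control miRNA, against -2.52, -1.93, -2.27 and -1.13 in the P0 neurospheres of those conditions. Every P2 array lay above every P0 array, by at least 1.41. The passage difference was 3.32 (SE 0.25, 95% interval 2.68 to 3.96, adjusted p = 0.0289 in limma).

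Slc1a1, the glutamate transporter EAAC1, found on neurons and also a carrier of cysteine, had P2 levels of -0.49 with the knockdown, 1.51 with control shRNA, 1.98 with miR-17 and 1.65 with control miRNA, against P0 levels of -2.15, -1.78, -2.38 and -2.07. The P0 arrays lay close together, with an SD of 0.25, while the P2 arrays had an SD of 1.12 (n = 4 each), the knockdown array being the low one. The passage difference was 3.26 (SE 0.47, 95% interval 2.07 to 4.45, adjusted p = 0.0379 in limma). Its probe was printed 10 times on each array, and those spots varied by 2.27% to 10.2% (coefficient of variation), which describes spots and not cultures.

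Slc1a3, GLAST, had P2 levels of 2.85 with the knockdown, 3.75 with control shRNA, 3.69 with miR-17 and 4.06 with control miRNA, against 1.78, 2.19, 0.98 and 1.76 at P0. Here too the lowest P2 array, the knockdown, was above the highest P0 array, by 0.66. The passage difference was 1.91 (SE 0.33, 95% interval 1.08 to 2.73, adjusted p = 0.0445 in limma). Among the 20678 genes well above background on all 8 arrays, 9.93% had all 4 P2 arrays above all 4 P0 arrays and 16% had all 4 below, against 3 and 0 of the 7 transporters.

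**Figure D1:**
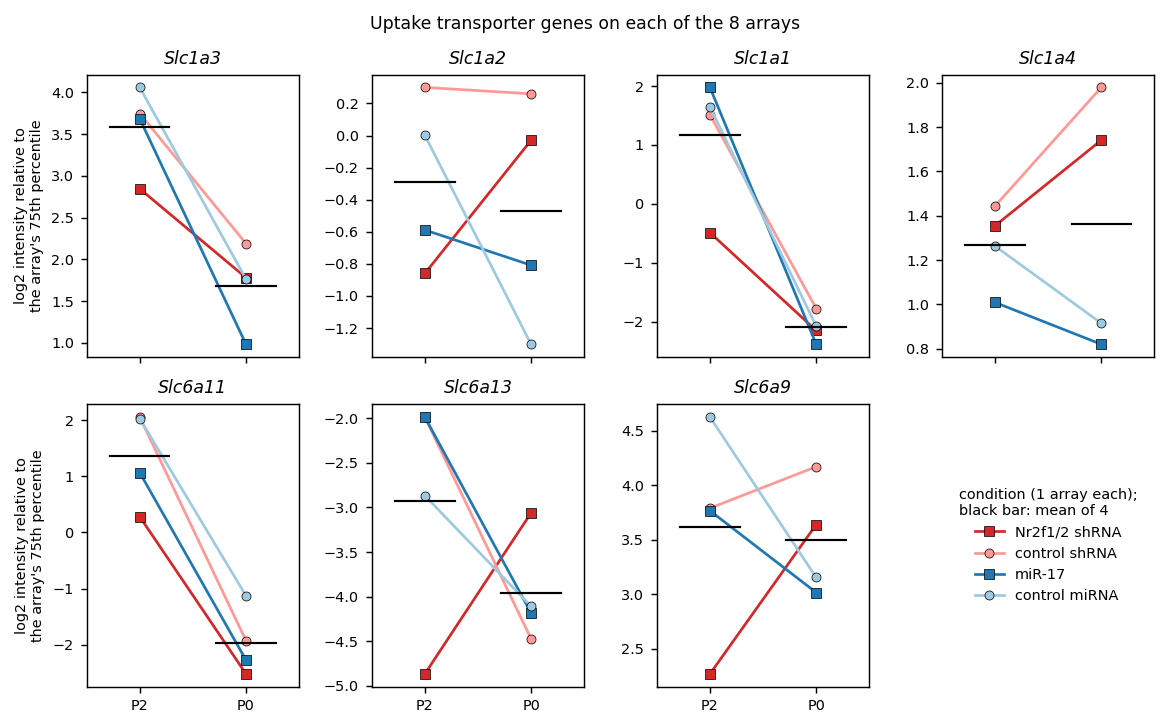
Levels of the 7 transporter genes (log2 intensity relative to the array's 75th percentile, a separate scale in each panel) on the 4 P2 arrays, left, and the 4 P0 arrays, right, with a line for each condition and a black bar for the mean of 4. All P2 points of Slc1a3, Slc1a1 and Slc6a11 lie above all P0 points, while the lines of Slc1a2, Slc1a4, Slc6a13 and Slc6a9 run in both directions.

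Slc1a2, GLT-1, the main glutamate transporter of mature astrocytes, stood at -0.86 in P2 neurospheres with the knockdown, 0.30 with control shRNA, -0.59 with miR-17 and 0.002 with control miRNA, against -0.03, 0.26, -0.81 and -1.30 at P0. The passages overlapped, and the difference was 0.18 (SE 0.37, 95% interval -0.76 to 1.13, adjusted p = 0.729 in limma). A further pair of probes, at bases 2881 and 7009 of another transcript of the gene (chr2:102622252-102622311 and chr2:102626380-102626439, mm9), gave 0.74 and 0.73. These probes were dimmer, with mean intensities of 73.4 and 63.9, against 601 for the probe used. The probe at 7009 was well above background on 7 of 8 arrays, the exception being control miRNA at P0. On all 3 probes the knockdown was lower at P2 than at P0, by -0.83, -0.36 and -0.16 in their order along the chromosome. The control miRNA was higher at P2, by 1.30, 1.47 and at least 1.62 in the same order.

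**Figure D2:**
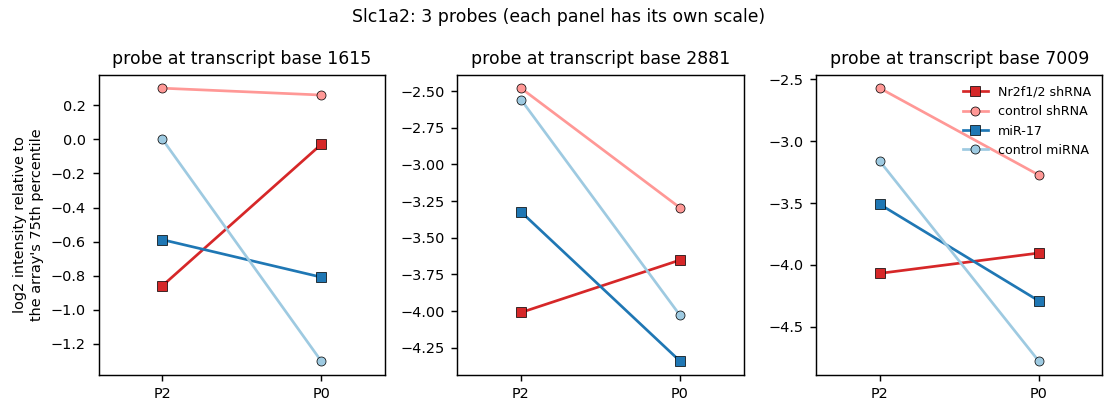
Levels on the 3 probes of Slc1a2 (log2 intensity relative to the array's 75th percentile, a separate scale in each panel) at P2, left, and P0, right, with a line for each condition. On each probe the line of the Nr2f1/2 shRNA is lower at P2 and that of the control miRNA higher, and the control shRNA lies highest at both passages.

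Slc1a4, the exchanger ASCT1 for serine, alanine and cysteine, had the smallest spread over the arrays. Its P2 levels were 1.35 with the knockdown, 1.44 with control shRNA, 1.01 with miR-17 and 1.26 with control miRNA, against 1.74, 1.98, 0.82 and 0.91 at P0. The shRNA arrays were thus lower at P2 and the miRNA arrays higher. The difference was -0.10 (SE 0.23, 95% interval -0.69 to 0.50, adjusted p = 0.776 in limma), and 0.11 relative to the median of all genes.

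Slc6a9, the glycine transporter GlyT1, which clears glycine around synapses and is made largely by glia, had P2 levels of 2.27 with the knockdown, 3.79 with control shRNA, 3.77 with miR-17 and 4.62 with control miRNA, against 3.64, 4.17, 3.02 and 3.15 at P0. The highest and the lowest of the 8 arrays were both P2 arrays. The difference was 0.12 (SE 0.50, 95% interval -1.16 to 1.39, adjusted p = 0.872 in limma). The second probe of the gene, 9 bases along, gave 0.07.

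Slc6a13, the GABA transporter GAT-2, in the mouse best known from liver, kidney and the meninges, was at -4.87 in P2 neurospheres with the knockdown, -1.99 with control shRNA, -1.99 with miR-17 and -2.87 with control miRNA, against -3.06, -4.47, -4.18 and -4.11 at P0. The knockdown array was the lowest at P2 and the highest at P0. The lowest signal well above background on an array was between -5.75 and -4.73. The levels of -4.87 to -4.11, those of the P2 knockdown and of the other conditions at P0, lay near that limit. The levels of -3.06 to -1.99 lay further above it. The difference was 1.03 (SE 0.76, 95% interval -0.91 to 2.97, adjusted p = 0.347 in limma), and 0.42 with normexp background correction.

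The calls depended on which arrays were in the fit. When 1 array of the miR-17, control miRNA or control shRNA condition was dropped, 0 of 7 transporters passed, as did 0% of all genes (5825 to 8417 genes at an unadjusted p under 0.05), with an adjusted p in limma of 0.116 to 0.176 for Slc6a11, Slc1a1 and Slc1a3 and differences of 1.64 to 3.37. Without either Nr2f1/2 shRNA array 4 of 7 passed, with Slc6a13 added at 1.97 (adjusted p = 0.0305 in limma), against 18.1% of all genes there.

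Counted within each condition, with arrays compared singly, 3 transporters were at least 2-fold higher and 2 at least 2-fold lower at P2 than at P0 with the knockdown (background among genes well above background on both arrays 4.48% and 5.84%). With control shRNA 4 were higher and 0 lower (9.87% and 13.5%). With miR-17 4 were higher and 0 lower (14.9% and 22.5%), and with control miRNA 6 were higher and 0 lower (15.9% and 20.7%). The P2 minus P0 difference of Slc1a1 was 1.66 with the knockdown, against 3.29 with control shRNA. For Slc1a3 it was 1.07 with the knockdown and 1.56 with control shRNA, and for Slc6a11 2.80 with the knockdown and 3.99 with control shRNA. These 3 were thus at least 2-fold higher at P2 in the knockdown as well, by smaller differences.

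The vector systems were then set against each other. The shRNA arrays included the knockdown and the miRNA arrays miR-17, so these fits do not separate vector system from treatment. Each vector system alone was a fit of 4 arrays. In the miRNA arrays alone 50.2% of all genes passed for passage and 5 of 7 transporters did, among them Slc6a9 with a difference of 1.11 (adjusted p = 0.0339 in limma) and Slc6a13 with 1.72 (adjusted p = 0.0175). In the shRNA arrays alone 0 of 7 transporters and 0% of all genes passed in limma (5044 genes at an unadjusted p under 0.05), and Slc6a9 was at -0.87 and Slc1a2 at -0.40. The passage difference of the miRNA pairs minus that of the shRNA pairs was 1.98 (SE 0.49, adjusted p = 0.0740 in limma) for Slc6a9, 1.19 (SE 0.34, adjusted p = 0.0963) for Slc1a3 and 0.73 (SE 0.28, adjusted p = 0.156) for Slc1a4. For the other 4 it was between -0.15 and 1.57, and 0 of 7 passed, against 1.85% of all genes called higher, 6.85% lower and 8.7% in either direction. In the control pairs alone, P2 minus P0 with control miRNA and control shRNA was 1.47 and -0.38 for Slc6a9. It was 2.30 and 1.56 for Slc1a3, 0.35 and -0.54 for Slc1a4, 3.72 and 3.29 for Slc1a1 and 1.30 and 0.04 for Slc1a2. For Slc6a13 (1.24 and 2.49) and Slc6a11 (3.16 and 3.99) the control shRNA pair had the larger difference.

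The knockdown was compared with its control shRNA at each passage. In P2 neurospheres all 7 transporters were lower with the knockdown, 5 of them by at least 2-fold, and in P0 neurospheres 6 were lower, none by 2-fold. Among genes well above background on both arrays 8.93% were 2-fold lower and 7.19% higher at P2, and 0.457% lower and 1.25% higher at P0. The median difference of the 7 was -1.52 at P2 and -0.37 at P0, against 0.07 and -0.003 over all genes tested. With 1 array per group there is no test of these differences.

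At P2 the knockdown array minus its control was -2.88 for Slc6a13, -2.001 for Slc1a1, -1.78 for Slc6a11, -1.52 for Slc6a9 and -1.16 for Slc1a2. It was -0.90 for Slc1a3 and -0.09 for Slc1a4, which are under 2-fold. Slc6a13 moved to -1.77 with normexp background correction. On the other probes of Slc1a2 the difference was -1.53 and -1.50, and on the second Slc6a9 probe -1.46. At P0 the knockdown differed from its control by -0.59 for Slc6a11, -0.53 for Slc6a9, -0.41 for Slc1a3, -0.37 for Slc1a1, -0.29 for Slc1a2 and -0.24 for Slc1a4. Slc6a13 alone among the 7 was higher in the P0 knockdown array, by 1.41, or by 0.51 with normexp background correction.

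Fitted over both passages, 0 of 7 transporters passed for the knockdown (adjusted p = 0.9997 in limma), as did 0% of all genes, with 520 genes (1.91%) at an unadjusted p under 0.05. The largest mean differences were -1.19 (SE 0.66, 95% interval -2.87 to 0.49) for Slc1a1 and -1.18 (SE 0.36, 95% interval -2.09 to -0.28, unadjusted p = 0.0199 in limma) for Slc6a11. The change of the knockdown difference between passages was -3.67 (SE 0.87, unadjusted p = 0.0131, adjusted p = 0.9998 in limma) for Slc6a13, -1.91 (SE 1.05) for Slc6a9, -1.84 (SE 0.71) for Slc1a1 and -1.50 (SE 0.87) for Slc1a2. None of the 7 passed this interaction, nor did any other gene, and 1076 genes (3.95%) had an unadjusted p under 0.05.

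The control arrays, which carried neither the knockdown nor miR-17, give a measure of how far arrays of 1 passage differ. They also differed in vector system and slide column. At P2 the control miRNA array was within 2-fold of the control shRNA array for all 7 transporters, with differences from -0.88 to 0.83 and a median of -0.03, while 9.8% of genes were 2-fold higher and 10.4% lower. At P0 it was at least 2-fold lower for 3 of 7, Slc1a2 by -1.56, Slc1a4 by -1.06 and Slc6a9 by -1.01, where 4.34% of genes were 2-fold lower and 8.29% higher. The P2 knockdown difference was larger in size than that between the control arrays of that passage for all 7 but Slc1a4, whose control arrays differed by -0.18. The P0 knockdown difference was smaller in size than that between the P0 control arrays for all but Slc1a1 and Slc6a13.

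miR-17 was compared with its control miRNA in the same way. Slc6a11 was lower with miR-17 at both passages, by -0.96 at P2 and -1.14 at P0, the sole transporter past 2-fold, and at P0 only. With normexp background correction those differences were -0.84 and -0.79. In P2 neurospheres miR-17 minus control miRNA was -0.86 for Slc6a9, -0.59 for Slc1a2, -0.38 for Slc1a3, -0.25 for Slc1a4, 0.33 for Slc1a1 and 0.88 for Slc6a13. In P0 neurospheres it was -0.78 for Slc1a3, -0.31 for Slc1a1, -0.14 for Slc6a9, -0.09 for Slc1a4, -0.07 for Slc6a13 and 0.49 for Slc1a2. The background was 0.733% of genes 2-fold lower and 1.18% higher at P2, and 1.19% lower and 2.77% higher at P0. Over both passages the difference of Slc6a11 was -1.05 (SE 0.36, 95% interval -1.96 to -0.15, unadjusted p = 0.0303, adjusted p = 0.9997 in limma). For miR-17, 0 of 7 transporters and 0% of genes passed, and 271 genes (0.995%) had an unadjusted p under 0.05. For the change of the miR-17 difference between passages 0 passed as well, with 294 genes (1.08%) at an unadjusted p under 0.05.

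**Figure D3:**
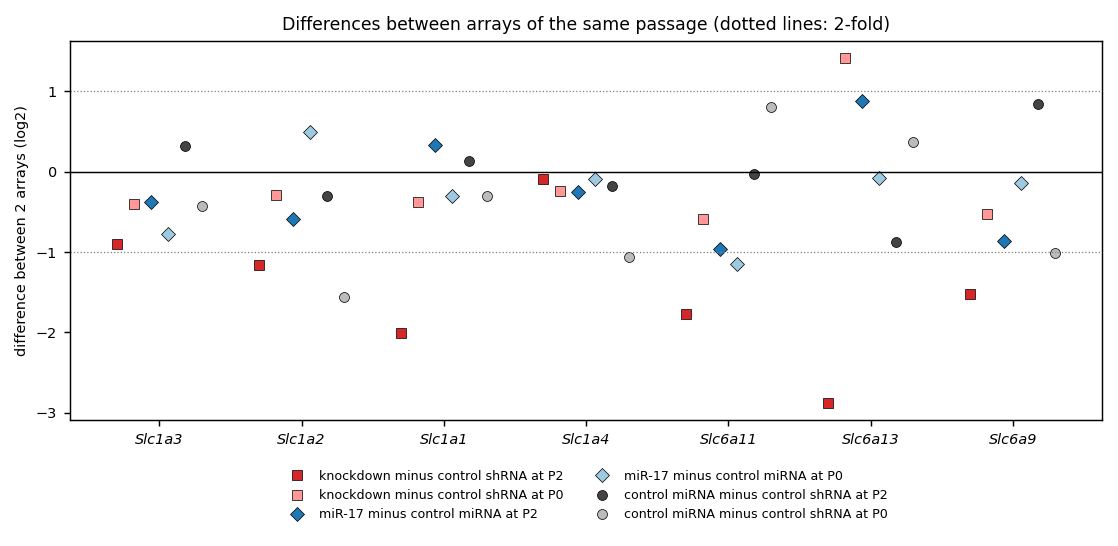
Differences between 2 arrays of the same passage (log2) for each transporter, with dotted lines at 2-fold. The P2 knockdown squares lie lowest for Slc1a3, Slc1a1, Slc6a11, Slc6a13 and Slc6a9, and the control miRNA circles at P0 lie lowest for Slc1a2 and Slc1a4.

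Genes that handle the same amino acids were listed beside the transporters. Of the other SLC1 genes, Slc1a5, the glutamine exchanger ASCT2, fell 4.46-fold with passage, a difference of -2.16 (SE 0.29, adjusted p = 0.0363 in limma), and 0 of 3 rose. Slc1a6 and Slc1a7, glutamate transporters of Purkinje cells and of the retina, were at -0.56 and 0.05 and did not pass. Slc1a5 was 1.04 higher in the P2 knockdown array than in its control, opposite in direction to the 7 transporters. Of 12 other SLC6 genes tested 0 rose and 0 fell, with a list median of 0.49. Those that differed by most were the serotonin transporter Slc6a4, near 2.40-fold higher at P2 (adjusted p = 0.0947 in limma), the neuronal amino acid transporter Slc6a17, 2.99-fold (adjusted p = 0.0553), and the dopamine transporter Slc6a3, at least 2.36-fold (adjusted p = 0.256).

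Among 8 carriers of glutamine and cystine 1 rose and 1 fell. Slc38a5, a glutamine carrier, fell at least 6.30-fold with 2 of 4 P2 arrays well above background (adjusted p = 0.0422 in limma), and Slc38a3, a glutamine carrier of astrocytes named after its values were seen, rose by 1.60 (SE 0.21, adjusted p = 0.0362). Slc7a11, the cystine and glutamate exchanger, was at least 11.2-fold and Slc7a10, the exchanger Asc-1, at least 3.15-fold higher at P2, and neither passed (adjusted p = 0.0745 and 0.0693 in limma). Of the 4 genes that load vesicles 3 fell, the glutamate carriers Slc17a6, 4.62-fold, Slc17a8, 2.40-fold, and Slc17a7, near 2.35-fold (adjusted p = 0.0356, 0.0418 and 0.0421 in limma). The vesicular carrier of GABA and glycine, Slc32a1, was at -0.76 and did not pass.

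Of 10 enzymes of glutamate and GABA 2 rose and 1 fell. Abat, which breaks down GABA, rose 4.52-fold (adjusted p = 0.0289 in limma). Glul, glutamine synthetase, named after its values were seen, rose by 1.21 (SE 0.21, adjusted p = 0.0468), with P2 levels of 2.94 with the knockdown, 3.64 with control shRNA, 3.71 with miR-17 and 4.11 with control miRNA, against 2.18, 2.36, 2.49 and 2.53 at P0. Glud1, glutamate dehydrogenase, was 3.80-fold higher at P2 (adjusted p = 0.0567 in limma) and did not pass. None of the 10 glycine and serine enzymes passed, the largest differences being those of Shmt1 at -2.09, Srr at 1.35 and Shmt2 at -0.94. Of 6 sodium pump subunits 1 rose and 0 fell, with a list median of 1.15. Atp1b2 and Atp1b1 were 7.85- and 2.37-fold higher at P2 without passing.

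Marker genes of glia moved in the same comparisons as the transporters. Of 12 astrocyte markers 5 rose with passage and 0 fell. S100b was at least 154-fold and Ntsr2 at least 53.6-fold higher, both not well above background on any P0 array. The summed level of the list was 89.9 to 1339 on P2 arrays, against 27.3 to 44.7 on P0 arrays. Summed levels are on a linear scale, not log2, so bright genes weigh most. The brightest of the list on the control miRNA P2 array were Apoe and Clu, at log2 levels of 9.22 and 8.24. They were named after their values were seen, and neither passed for passage (adjusted p = 0.0783 and 0.0669 in limma). Gfap, the astrocyte filament gene, was at least 150-fold higher at P2, with 3 of 4 P0 arrays well above background, but did not pass (adjusted p = 0.0605 in limma). In the oligodendrocyte lineage 4 of 11 rose, among them Gpr17, at least 339-fold and also dim on all P0 arrays, and Cnp, 47.9-fold, with a summed level of 12.5 to 421 on P2 arrays and 8.88 to 13.8 on P0 arrays. Of 10 radial glia genes 2 rose, Fabp7, 2.48-fold, and Tnc, whose probe was not well above background on any P0 array. Nes, of the same list, was 3.48-fold lower at P2 and did not pass (adjusted p = 0.0800 in limma). Of 10 neuron genes 1 fell, Elavl4, 4.34-fold. None of 10 cell cycle genes passed, with a list median of -2.68. Among pericyte and fibroblast genes 1 of 7 rose, Col1a1, 15.1-fold, among 6 endothelial, blood and microglial genes 0 passed, and of 6 pluripotency genes 2 fell, Esrrb, 5.68-fold, and Zfp42, at least 8.12-fold.

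In P2 neurospheres the knockdown array differed from its control on the same lists. All 12 astrocyte markers were at least 2-fold lower there than with control shRNA (list median -3.13). Their summed level, on the linear scale, was 89.9 with the knockdown and 454 with control shRNA. Of 11 oligodendrocyte markers 7 were at least 2-fold lower (median -2.10), while each of 10 cell cycle genes was 2-fold higher or more (median 2.49). At P0 the same medians were 0.01, 0.13 and 0.11. The P2 control arrays also differed from each other on these lists. With control miRNA 10 of 12 astrocyte markers were at least 2-fold higher than with control shRNA (median 1.58), with a summed level of 1339. Of the oligodendrocyte markers 3 of 11 were 2-fold higher (median 0.66), and 5 of 10 cell cycle genes were 2-fold lower (median -0.95). The part of these cells in the transporter differences was not tested.

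**Figure D4:**
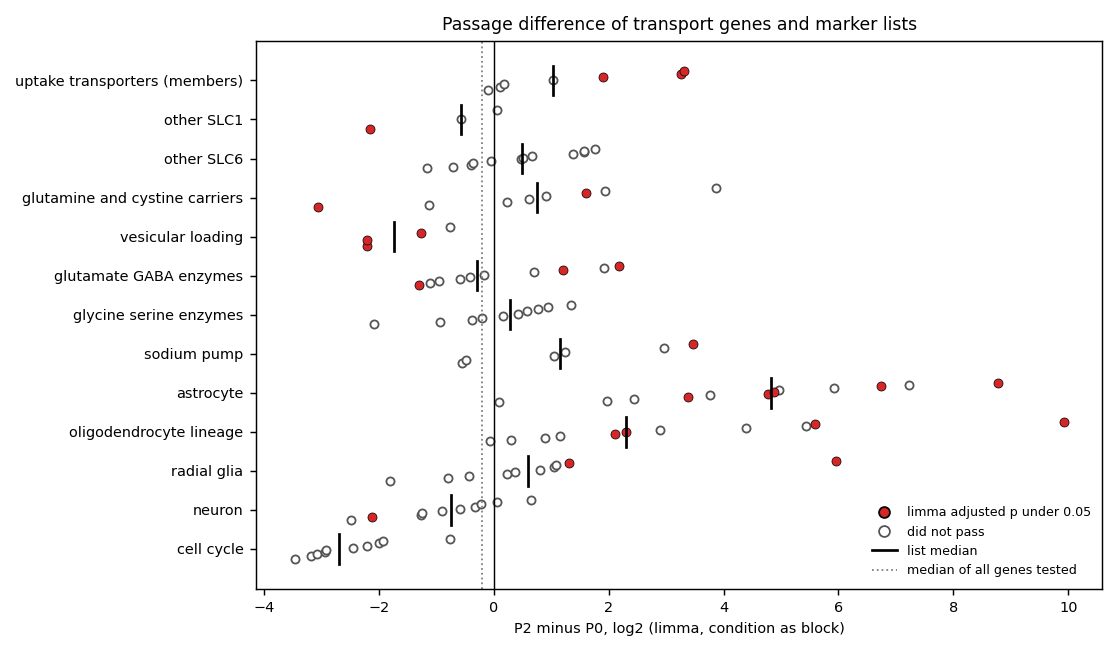
Passage difference (P2 minus P0, log2, limma with condition as a block) of each transporter and of the genes of 12 lists, filled red where the adjusted p was under 0.05, with a bar at the list median and a dotted line at the median of all genes tested. The red points of the uptake transporters lie at 1.91, 3.26 and 3.32, and astrocyte and oligodendrocyte genes reach higher.

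The genes most like each transporter over the 8 arrays were found by Pearson's r among 8469 genes whose levels had an SD of at least 0.5. The arrays fall into 2 passages, so for Slc6a11, Slc1a1 and Slc1a3, which rose with passage, r over 8 arrays mostly follows passage. For every gene r is given as a description. Slc1a1 was followed most closely by Mpst (r = 0.997) and Tst (0.994), Slc6a11 by Dgkb (0.995) and Invs (0.988), and Slc1a3 by Them4 (0.992) and Rsph9 (0.991). For genes with no common passage change the near ones were Ugt1a6b (0.950) to Slc6a9, Dmtf1 (0.969) and Pcdhgb1 (0.960) to Slc1a4, Oasl2 (0.961) and Lrrc71 (0.927) to Slc6a13, and Per3 (0.937) and Atp1a4 (0.931) to Slc1a2. Tst had a passage difference of 4.15 and a P2 knockdown difference of -1.81, near those of Slc1a1, while Mpst spanned less, at 0.96 and -0.61.

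The other probes lay, in mm9, at chr19:28988332-28988391 (+ strand) for Slc1a1, chr15:8584236-8584295 (- strand) for Slc1a3, chr11:20202615-20202674 (- strand) for Slc1a4, chr6:114199514-114199573 (+ strand) for Slc6a11, chr6:121287597-121287656 (+ strand) for Slc6a13 and chr4:117541842-117541901 (+ strand) for Slc6a9. Exon and UTR annotation of that build was not used here.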

How the data were processed

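RNA (50 ng, Cy3-labelled, 1 colour) from 8 samples was read with Agilent Feature Extraction 10.7.3.1, per the submitters' processing notes. The processed intensity per spot is the authors' deposited scanner value, and the file headers name mm9. A deposited table of signal values holds the same intensities over 1 divisor for each array (481 to 949), on a linear scale without centring by gene. The choice of divisors is not given in those sources, and the table's column medians were 0.0814 to 0.145.

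Here control spots and 1104 spots flagged as outliers were left out, log2 intensities of a probe's spots were averaged, and the log2 75th percentile of an array's non-control spots was taken off. Kept were probes that at least 2 of 8 arrays placed well above background, with the brightest probe per gene, leaving 27234 genes. Of 55653 probes 26413 were named through their accession in the GRCm38.p6 table and 29240 by the file. limma 3.58.1 in R 4.3.3 took condition and passage as factors (3 residual and 2.21 prior degrees of freedom), two-sided, with Benjamini-Hochberg adjustment over all genes. The interaction fit had 1 residual degree of freedom (3.06 prior). Where the lower passage had arrays on which a gene was dim, the fold is a bound, written as "at least". Each such array was set to the higher of the gene's own signal and the lowest signal well above background there. For Slc6a4 and Slc17a7 the higher passage also had a dim array, which kept its own signal. Their folds are therefore no bounds and are written as "near".

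The members and gene lists were chosen with earlier results of these data known. Genes named outside the members are at most 3 per list, those with the largest passage difference, the 2 nearest by Pearson's r to each member, and Nr2f1 and Nr2f2. Exceptions are marked in the text, and some genes that the rule names are not reported here. Alternatives were background correction (normexp, offset 50), quantile normalization, the authors' table, filters, the mean of a gene's probes, a trended prior, no block, each array left out, each vector system alone and a threshold of 0.1. Other probes of Slc1a2 and Slc6a9 and the vector-by-passage term were added after seeing the data.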

Additional observations from a re-analysis of the deposited data

Results flagged for a closer look

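The passage change of Slc6a9 went in opposite directions in the vector systems, higher at P2 in both miRNA pairs and lower at P2 in both shRNA pairs, with a difference of 1.98 (SE 0.49, adjusted p = 0.0740 in limma). Slc1a4 showed the same opposition on a smaller scale, with a difference of 0.73 (SE 0.28, adjusted p = 0.156 in limma). For Slc6a13 the knockdown difference changed by -3.67 between passages (SE 0.87, unadjusted p = 0.0131, adjusted p = 0.9998 in limma), being lower than control at P2 and higher at P0. Vector system cannot be told apart from slide column, and the shRNA pairs include the knockdown. The Slc6a13 levels of the P2 knockdown and P0 control shRNA arrays lay near the lowest signals well above background.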

How the results depend on the processing

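The 3 passage calls of Slc6a11, Slc1a1 and Slc1a3 held under normexp background correction, quantile normalization, the authors' table, a filter on all 8 arrays, no filter, a trended prior, the mean over probes and no block. With an array left out, 0 to 4 of the 7 members and 0 to 4925 of all genes passed for passage; the block drops the other array of that condition as well. The shRNA arrays alone gave 0 members and 0 genes, and the miRNA arrays alone 5 members and 13682 genes. All genes called for passage numbered 1383, against 6020 with normexp, 3691 with the filter on all 8 arrays, 4332 with a trended prior, 3936 with no block and 8784 at an adjusted p under 0.1; the cause was not tested. The member counts at 2-fold for the P0 knockdown and P0 miR-17 differences went to 0 with normexp.

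Differences that changed sign were all uncalled. By leaving out an array, passage ranged from -0.19 to 0.52 for Slc1a2, -0.24 to 0.050 for Slc1a4 and -0.33 to 0.61 for Slc6a9. The knockdown ranged from -0.46 to 0.13 for Slc1a4 and -2.62 to 1.16 for Slc6a13. The miR-17 difference ranged from -0.72 to 0.75 for Slc1a1, -0.80 to 0.70 for Slc1a2, -0.47 to 0.12 for Slc1a4, -0.37 to 1.18 for Slc6a13 and -1.40 to 0.40 for Slc6a9. The shRNA arrays alone gave a passage difference of -0.40 for Slc1a2 and -0.87 for Slc6a9, and the miRNA arrays alone 0.27 for Slc1a4. Quantile normalization turned the miR-17 difference of Slc1a1 to -0.13, and the change of the miR-17 difference between passages to 0.11 for Slc6a11 and -0.078 for Slc6a9. The authors' table gave -0.010 for Slc1a1 with miR-17, and the Slc1a2 probe at base 7009 gave 0.070. The median of all genes moved by -0.21 with passage, and by -0.02 after quantile normalization. The labels give no replicate numbers, and the passage fit pairs the P2 and P0 arrays of a condition through its block. The number of arrays and low signals, such as those of Slc6a13 on some arrays, limit what could be seen.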
